A study of Mus musculus with 15 samples.

Results

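The 10 genes described here are the Dlk1-Meg3 pair on mouse chromosome 12 and 8 further imprinted genes that are expressed from the paternal copy, Peg10, Sgce, Peg3, Mest, Snrpn, Plagl1, Nnat and Ndn. They were taken by name from the arrays of the series, which name 31444 genes in all, and Meg3 is written there under its older symbol Gtl2. Their names stand on 20 of 41174 expression probes and on 43 of 80567 MeDIP promoter probes. Every one of the 10 had an expression probe. Peg3 had no MeDIP probe, and Peg10 was covered there by 3 probes named for Sgce and Peg10 together.

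The study set TKO mouse embryonic stem (ES) cells, a line deficient in DNA methylation through loss of Dnmt1, Dnmt3a and Dnmt3b, the enzymes that write it, against J1, the wild-type ES cell line. Both lines grew in serum with LIF and without feeder cells for 2 passages before harvest. MeDIP, an antibody pull-down of methylated fragments, started from 2 ug of DNA, and both lines were hybridised together on promoter arrays that come in 2 parts, with 7 arrays of each part from different passages. For RNA both lines were put together on each of 3 expression arrays, replicates from the same cultures per the study's text, so that each array gives 1 log2(TKO/J1) ratio. The groups are 1 line per genotype, and p-values here measure the spread between arrays.

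In an imprinted gene only the copy from one parent is read, and the choice is held by a control region that carries DNA methylation on the other parental copy or, at some loci, on the same one. At Peg10 and Sgce, Peg3, Mest, Snrpn, Plagl1 and Nnat the methylated control region is on the maternal copy. At the Dlk1-Meg3 domain it is on the paternal copy, where Dlk1 is active, while the noncoding RNA genes Meg3, Rian and Mirg are read from the maternal copy. In ES cells these marks are kept by maintenance methylation and by the zinc finger protein Zfp57 with Trim28, which binds the methylated motif TGCCGC.

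The RNA labels were checked on the targeted genes. Log2(TKO/J1) was -2.51 ± 0.19 for Dnmt3b (SD, n = 3), -2.36 ± 0.18 for Dnmt3a (n = 2) and -1.07 ± 0.25 for Dnmt1 (n = 2). Whether these probes lie inside the deleted parts is not known here. The share of probes well above background was 88.2% to 99.7% per MeDIP channel and 38.6% to 66.8% per expression channel. Expression replicate 3 had the lowest share and 8386 uneven spots, which were left out, so that Meg3, Peg10, Sgce and Mest were tested on replicates 1 and 2 alone. The labels leave the dye of each line open on the expression arrays. The study's text says that replicate 2 is the dye swap, and red over green correlated at -0.65 between replicates 1 and 2, at 0.64 between 1 and 3 and at -0.62 between 2 and 3. J1 was taken to be in Cy5 on replicates 1 and 3.

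The promoter sequences below show where methylation could sit, since the antibody reads methylated cytosine and in mouse DNA this is found mainly in CG pairs. RefSeq held promoter windows of 300 bases (250 before and 50 after a start, build GRCm38.p6) for 8 of the 10 genes. Windows are given for the genes on which the RNA and MeDIP results turn, 5′ to 3′ on the gene's strand, with every CG in capitals.
Dlk1 (chr12:109452573-109452872, + strand): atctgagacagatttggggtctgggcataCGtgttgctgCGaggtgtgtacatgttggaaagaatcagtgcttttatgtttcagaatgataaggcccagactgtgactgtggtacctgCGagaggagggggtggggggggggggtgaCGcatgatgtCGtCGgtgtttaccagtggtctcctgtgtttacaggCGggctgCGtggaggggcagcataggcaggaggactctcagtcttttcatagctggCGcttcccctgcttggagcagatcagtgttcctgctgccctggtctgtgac
Meg3, first start (chr12:109540746-109541045, + strand): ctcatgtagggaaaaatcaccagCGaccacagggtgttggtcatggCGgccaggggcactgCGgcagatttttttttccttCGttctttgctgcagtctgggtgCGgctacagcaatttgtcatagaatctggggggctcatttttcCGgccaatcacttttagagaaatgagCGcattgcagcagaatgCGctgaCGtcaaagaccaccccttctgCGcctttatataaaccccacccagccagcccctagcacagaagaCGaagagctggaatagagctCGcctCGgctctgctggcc
Plagl1 (chr10:13090582-13090881, + strand): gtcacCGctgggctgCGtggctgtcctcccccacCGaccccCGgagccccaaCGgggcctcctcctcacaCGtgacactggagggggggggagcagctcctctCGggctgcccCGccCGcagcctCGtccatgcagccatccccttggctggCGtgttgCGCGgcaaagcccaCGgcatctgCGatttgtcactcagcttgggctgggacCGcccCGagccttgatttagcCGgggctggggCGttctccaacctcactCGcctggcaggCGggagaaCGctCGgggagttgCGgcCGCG
Mest, upstream start (chr6:30733256-30733555, + strand): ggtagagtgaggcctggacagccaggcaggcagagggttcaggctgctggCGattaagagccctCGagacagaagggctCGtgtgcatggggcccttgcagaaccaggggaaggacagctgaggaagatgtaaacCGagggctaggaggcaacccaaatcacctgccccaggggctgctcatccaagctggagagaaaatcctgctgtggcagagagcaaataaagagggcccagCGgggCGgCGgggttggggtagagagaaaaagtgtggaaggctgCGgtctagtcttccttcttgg
Mest, downstream start (chr6:30737800-30738099, + strand): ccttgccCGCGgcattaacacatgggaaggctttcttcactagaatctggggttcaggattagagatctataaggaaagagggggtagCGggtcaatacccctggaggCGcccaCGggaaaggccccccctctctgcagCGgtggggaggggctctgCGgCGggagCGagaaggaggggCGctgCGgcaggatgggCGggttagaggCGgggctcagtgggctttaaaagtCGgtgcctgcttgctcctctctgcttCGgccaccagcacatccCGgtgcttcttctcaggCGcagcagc
Snrpn, start shared with Snurf (chr7:60005150-60005449, - strand): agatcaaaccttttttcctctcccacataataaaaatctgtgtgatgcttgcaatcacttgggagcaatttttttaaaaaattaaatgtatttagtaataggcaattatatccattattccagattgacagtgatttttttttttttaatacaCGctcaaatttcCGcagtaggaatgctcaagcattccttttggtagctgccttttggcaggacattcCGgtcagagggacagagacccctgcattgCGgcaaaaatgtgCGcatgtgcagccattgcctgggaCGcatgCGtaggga
The Plagl1 window held 26 CG pairs, a number that 16.9% of the 32817 mouse windows reached. The downstream Mest window held 17, the first Meg3 window 13, the Dlk1 window 9, the upstream Mest window 8 and the Snrpn window 7, against a median of 7 over all windows. The motif TGCCGC, searched on both strands and containing a CG itself, had 2 matches in the downstream Mest window and 1 match in each of the Plagl1, Meg3 and Snrpn windows, and was not in the Dlk1 or upstream Mest windows. On either strand 11.6% of all windows held it. RefSeq held 14 windows of the 8 genes in all. Of those not shown, the Nnat window had 1 match and another downstream Mest window had 2. The windows of Peg3, Ndn, the second Meg3 start and the other Snrpn starts had 0.

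RNA of Dlk1 and Meg3 was higher in TKO cells, and so was that of Peg10. Of the 10 genes, 8 had a probe that passed the filter on dim probes. Of these 8, 3 were higher in TKO at an adjusted p under 0.05 (limma), where 16.5% of all 12094 genes tested were higher. Dlk1 alone passed the 2-fold call, which 1.6% of all genes passed upwards and 0.736% downwards. Of the 8 genes 0 were lower in TKO at that threshold, and 0 at an unadjusted p under 0.05, where 16.5% of all genes were lower at the adjusted threshold. The median log2(TKO/J1) was 0.20 over the 8 genes and -0.011 over all genes tested.

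Dlk1 encodes a membrane protein with EGF repeats that is related to the Notch ligands and is abundant in fetal tissues. Its brighter probe had a normalised log2 intensity of 9.08, 8.73 and 9.83 in TKO cells on replicates 1, 2 and 3, against 7.67, 7.41 and 8.60 in J1 cells. TKO was higher on every array, and the 2 lines did not overlap. Log2(TKO/J1) was 1.32 ± 0.08 (SD, n = 3, adjusted p = 4.85e-06), a 2.49-fold higher signal with a 95% interval of 2.19 to 2.83. The second Dlk1 probe gave 1.10, 0.59 and 0.71 on the 3 arrays, a smaller ratio in the same direction (adjusted p = 0.00052 when each probe was tested on its own). Dlk1 was at 1.06 when its probes were averaged (adjusted p = 1.61e-05). Median-centred arrays put it at 1.14 (adjusted p = 4.50e-04) and Agilent's processed signals at 1.62, all past the 2-fold call.

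Meg3 is the long noncoding RNA read from the maternal copy of the same domain. Its brightest probe had a normalised log2 intensity of 13.31 and 13.07 in TKO cells on replicates 1 and 2, against 12.18 and 12.22 in J1 cells. Both TKO values lay above both J1 values. Log2(TKO/J1) was 0.99 ± 0.21 (SD, n = 2, adjusted p = 2.91e-04, 95% interval 0.73 to 1.25), just under the 2-fold call. With Agilent's processed signals it was 1.01, past the call, in a setting that called 511 genes upwards against 193 in the main one. Other settings gave less. Median-centred arrays put Meg3 at 0.89 (adjusted p = 0.0209), and averaging its probes put it at 0.88 (adjusted p = 5.55e-05). All 5 Meg3 probes were higher in TKO on every array that measured them, and each passed an adjusted p under 0.05 when tested on its own, which 15.5% of all 16079 such probes did upwards. Their means ran from 0.50 ± 0.16 (n = 3) at the dimmest probe to 1.13 ± 0.29 (n = 3) and 1.07 ± 0.0015 (n = 2) at a pair of probes of middle brightness.

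The neighbours of Meg3 in the domain were higher as well. Rian, which gives rise to small nucleolar RNAs, was at 1.09 and 1.20 on replicates 1 and 2, a fitted log2(TKO/J1) of 1.14 ± 0.08 (n = 2, adjusted p = 7.94e-05). Mirg, a host of microRNAs, was at 0.78 and 0.82, a fitted 0.80 ± 0.03 (n = 2, adjusted p = 0.00052). Dio3, the thyroid hormone deiodinase at the far end, was well above background on 2 of 3 arrays and was not tested. By the same measure over 3 arrays, the 3 genes whose ratios lay closest to those of Dlk1 among 5907 others with a symbol were Ppp2r2c (root mean square difference 0.061), Mme (0.076) and Slco2a1 (0.076).

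**Figure D1:**
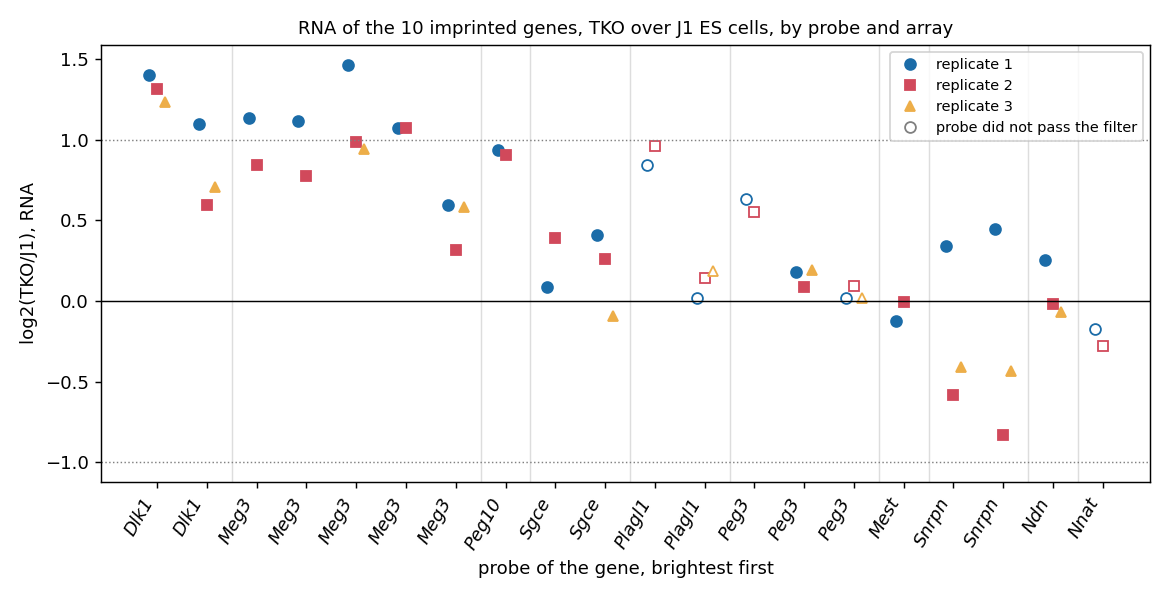
Log2(TKO/J1) of RNA (y axis) for every expression probe of the 10 genes (x axis), with 1 symbol per array and open symbols for probes that did not pass the filter on dim probes. The 2 Dlk1 and 5 Meg3 probes lie above 0 on each array, and the Snrpn probes are above 0 on replicate 1 and below 0 on replicates 2 and 3.

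Peg10 and Sgce are neighbours on chromosome 6 that are read in opposite directions. Peg10, a gene derived from a retrotransposon and needed for the placenta, had a normalised log2 intensity of 7.20 and 7.43 in TKO cells on replicates 1 and 2, against 6.27 and 6.52 in J1 cells. TKO was higher on both arrays without overlap, and log2(TKO/J1) was 0.92 ± 0.02 (SD, n = 2, adjusted p = 2.48e-04, 95% interval 0.68 to 1.15). With Agilent's processed signals it was 1.77, past the 2-fold call. Median-centred arrays put Peg10 at 0.95 (adjusted p = 0.0131), under the call. Sgce, epsilon-sarcoglycan, had 10.01 and 10.03 in TKO cells against 9.93 and 9.64 in J1 cells on the same arrays. Its log2(TKO/J1) was 0.24 ± 0.22 (n = 2, adjusted p = 0.147), and its second probe gave 0.41, 0.26 and -0.093 on replicates 1, 2 and 3. The difference between the 2 neighbours was not tested.

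Plagl1 and Peg3 encode zinc finger proteins, and Plagl1 acts as a regulator of other imprinted genes. Plagl1 did not pass the filter, since its brighter probe was well above background on 2 of 3 arrays in each line. On replicates 1 and 2 that probe had 7.60 and 7.80 in TKO cells and 6.76 and 6.84 in J1 cells. TKO was higher on both, with a log2(TKO/J1) of 0.90 ± 0.08 (n = 2). In the fit without the filter its adjusted p was 0.00699, where 8.06% of 28091 genes were higher in TKO. The dimmer Plagl1 probe, well above background on 1 array, gave 0.018, 0.14 and 0.19. Peg3 was covered by 3 probes that did not move alike. The brightest was at 0.63 and 0.55 on replicates 1 and 2 and was well above background on 2 of 3 arrays, so the probe tested was a dimmer one, at 0.15 ± 0.06 (n = 3, adjusted p = 0.177). With Agilent's processed signals the same probe was at 0.52 (adjusted p = 0.00386). Without the filter the brightest probe stood for Peg3, with an adjusted p of 0.0127.

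Mest, an enzyme of the alpha/beta-hydrolase fold, was bright and close to equal in the 2 lines. It had 10.68 and 10.79 in TKO cells and 10.80 and 10.79 in J1 cells, and log2(TKO/J1) was -0.063 ± 0.085 (n = 2, adjusted p = 0.692), with a 95% interval of -0.30 to 0.18. Ndn, the MAGE family protein necdin, had 6.67, 6.38 and 6.56 in TKO cells and 6.42, 6.40 and 6.63 in J1 cells. The lines overlapped, and log2(TKO/J1) was 0.057 ± 0.18 (n = 3, adjusted p = 0.68, 95% interval -0.15 to 0.26). Nnat, a small membrane proteolipid of neural and endocrine cells, did not pass the filter. Its probe had 6.25 and 6.22 in TKO cells and 6.43 and 6.50 in J1 cells on replicates 1 and 2, and in the fit without the filter log2(TKO/J1) was -0.23 ± 0.07 (n = 2, adjusted p = 0.0932).

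Snrpn encodes a small nuclear ribonucleoprotein of the spliceosome and shares a start with Snurf. It was the gene on which the arrays differed most. Its tested probe had 8.63, 7.81 and 8.90 in TKO cells and 8.29, 8.39 and 9.31 in J1 cells on replicates 1, 2 and 3, so TKO was the higher line on replicate 1 and the lower one on the other 2 arrays. Log2(TKO/J1) was -0.22 ± 0.49 (n = 3, adjusted p = 0.296). The second Snrpn probe split the same way, at 0.45, -0.83 and -0.43, and the probe of Snurf gave 0.20 and -0.62 on replicates 1 and 2. Replicates 1 and 3 have the same dye layout. Without replicate 1 the Snrpn ratio was -0.50 with an adjusted p of 0.00483.

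**Figure D2:**
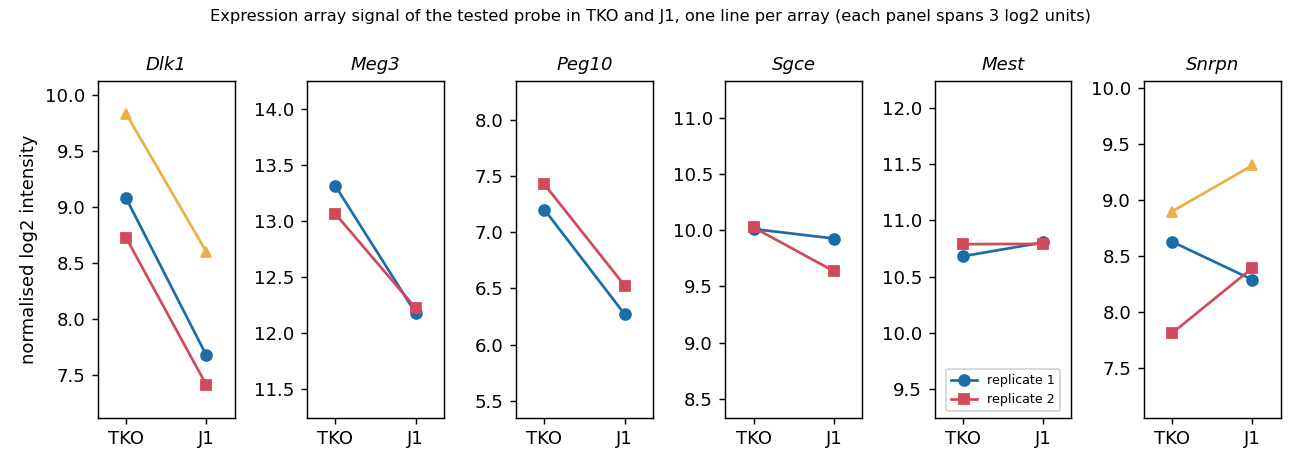
Normalised log2 intensity (y axis) of the tested probe in TKO and J1 cells, joined by array, for 6 of the genes. Every line slopes down from TKO to J1 for Dlk1, Meg3 and Peg10, while for Snrpn replicate 1 slopes down and replicates 2 and 3 slope up.

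Other imprinted genes moved both ways, where 16.5% of all genes tested were higher in TKO and 16.5% lower. Of 31 other paternally expressed genes listed, 14 were tested, and 4 were higher and 3 lower in TKO at an adjusted p under 0.05, with 0 past 2-fold in either direction and a median log2(TKO/J1) of -0.10. Of 35 other maternally expressed genes listed, 18 were tested, and 5 were higher and 1 lower, with a median of 0.13. In that list 3 passed the 2-fold call upwards. They were the cell cycle inhibitor Cdkn1c at 1.81 ± 0.12 (n = 2, adjusted p = 7.22e-06), the noncoding RNA H19 at 1.68 ± 0.61 (n = 3, adjusted p = 1.03e-04) and Rian. Of 18 listed genes that set or keep imprints, 13 were tested, with 2 higher, 2 lower and 0 past 2-fold.

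**Figure D3:**
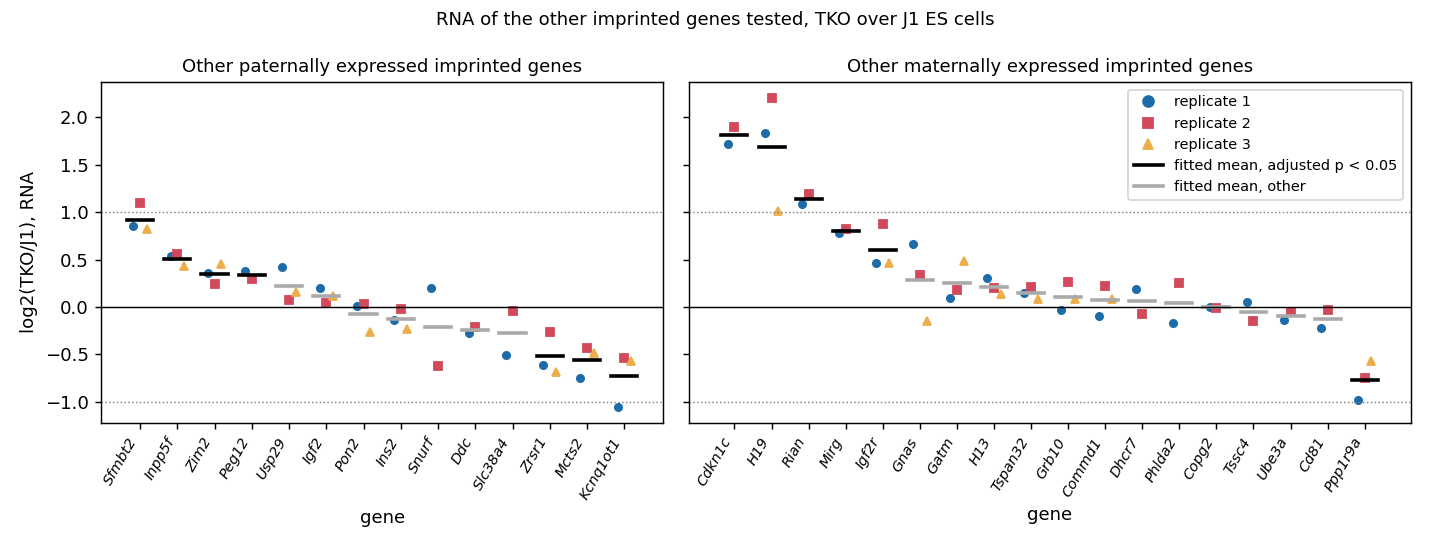
Log2(TKO/J1) of RNA (y axis) for the other imprinted genes tested, 14 paternally expressed and 18 maternally expressed (x axis), with 1 symbol per array and a bar for the fitted mean, black where the adjusted p was under 0.05. Cdkn1c, H19 and Rian of the maternally expressed list have means above 1, and the mean of each paternally expressed gene shown lies between -1 and 1, although Sfmbt2 was at 1.09 on replicate 2 and Kcnq1ot1 at -1.05 on replicate 1.

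Markers of 3 other cell types were mostly higher in TKO, where 16.5% of all genes tested were higher and 16.5% lower. Of 10 primitive endoderm markers listed, 9 were tested and 9 were higher in TKO at an adjusted p under 0.05. Of 11 feeder fibroblast markers, 6 were tested and 6 were higher. Of 10 trophoblast markers, 5 were tested and 4 were higher, the other being Tfap2c at -0.15 ± 0.07 (n = 2, adjusted p = 0.303). The summed normalised intensity over the markers measured on all 3 arrays was 1871 to 2412 in TKO and 544 to 897 in J1 for primitive endoderm (4 genes). For fibroblasts (2 genes) it was 614 to 811 in TKO and 329 to 473 in J1. For trophoblast it rests on Krt8 and Krt18 and was 28393 to 41374 in TKO and 5100 to 7657 in J1. Gata4 of the endoderm list and Cdx2, Elf5, Hand1, Eomes and Ascl2 of the trophoblast list did not pass the filter. Gata6 was at 1.56 ± 0.10 (n = 3, adjusted p = 2.33e-06). Of the ES cell markers, 1 of 7 was higher and 3 were lower in TKO, with Sox2 at -0.82 ± 0.13 (n = 3, adjusted p = 1.03e-04) and Klf4 at 0.97 ± 0.17 (n = 3, adjusted p = 5.01e-05). The summed intensity of Dppa5a, Klf4 and Sox2, the 3 measured on all 3 arrays, was 67605 to 103377 in TKO and 52194 to 76683 in J1. Dppa5a was at 0.50 ± 0.66 (n = 3, adjusted p = 0.0669). The lower markers Pou5f1, at -0.72 ± 0.14 (n = 2, adjusted p = 0.00124), and Esrrb, at -0.45 ± 0.06 (n = 2, adjusted p = 0.00997), are not in that sum. Of the 3 neural markers tested, Nes was higher at 0.91 ± 0.08 (n = 2, adjusted p = 2.79e-04), Ncam1 was lower at -0.71 ± 0.12 (n = 2, adjusted p = 0.00122) and Tubb3 was at 0.087 ± 0.18 (n = 3, adjusted p = 0.511). The part of other cell types in the RNA of Dlk1, Meg3 and Peg10 was not tested, and in whole cultures more cells of a type and more RNA per cell cannot be told apart.

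On the MeDIP arrays the labels put TKO in Cy5 and J1 in Cy3 on every array with no dye swap, so dye and line cannot be told apart. The ratio is written by label, as log2 of the channel labelled TKO over the channel labelled J1, and no line is taken from it to be the methylated one. Over all promoters 2.66% were called with the labelled TKO channel brighter and 0.0706% with the labelled J1 channel brighter, although TKO is the line deficient in methylation. If the labels are crossed, every sign below turns and the sizes stay.

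Among the 10 genes, 9 promoter regions had at least 3 probes, and 0 of them passed the call (limma, a log2 ratio of 0.5 or more in size at an adjusted p under 0.05). An unadjusted p under 0.05 was found at 6 of 9. Its share over all promoters was not counted, but 32.3% and 25.2% of them passed the stricter adjusted threshold on the 2 sides. At an adjusted p under 0.05 and any size, 2 were brighter in the labelled TKO channel and 3 in the labelled J1 channel, where 32.3% and 25.2% of all 14157 promoters did. The median was -0.049 over the 9 regions and 0.0087 over all promoters. The region downstream of the annotated Mest start and that of Plagl1 were the highest, and the regions of Meg3, Sgce with Peg10, and the Nnat-named probes were the lowest.

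At Dlk1, 6 probes from 1222 bp before to 238 bp after the annotated start gave array values from -0.13 to 0.087, with a median of -0.059. They lay below 0 on 6 of 7 arrays, and the mean was -0.047 ± 0.071 (SD, n = 7, adjusted p = 0.223). One Dlk1 probe stood apart from its neighbours. At 238 bp inside the gene the ratio ran from -0.46 to -0.16 and was below 0 on 7 of 7 arrays, with a mean of -0.29 ± 0.11 (adjusted p = 0.00264).

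At Meg3, 5 probes from 986 bp before to 148 bp after the annotated start gave array values from -0.25 to -0.030, with a median of -0.089. The ratio was below 0 on 7 of 7 arrays, with a mean of -0.13 ± 0.08 (n = 7, adjusted p = 0.00936), so the labelled TKO channel was the dimmer one. With mode centring of the arrays the mean was -0.083 (adjusted p = 0.121), with normexp and median centring -0.11 (adjusted p = 0.0559), and with normexp and loess -0.089 (adjusted p = 0.00619). The lowest Meg3 probe was the one inside the gene, at 148 bp, with -0.36 ± 0.27 (n = 7, adjusted p = 0.0114). At Dlk1 the lowest probe was also inside the gene, but the other inside probe, at 23 bp, was at -0.010. The other Meg3 probes ran from -0.19 to 0.030. Whether the Meg3 or Dlk1 probes reach the methylated control region of the domain was not determined. In the rest of the domain, the region at the start of Rtl1, a retrotransposon-derived gene, was at 0.26 ± 0.15 (adjusted p = 0.00107) and that of Dio3 at -0.15 ± 0.12 (adjusted p = 0.0137).

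**Figure D4:**
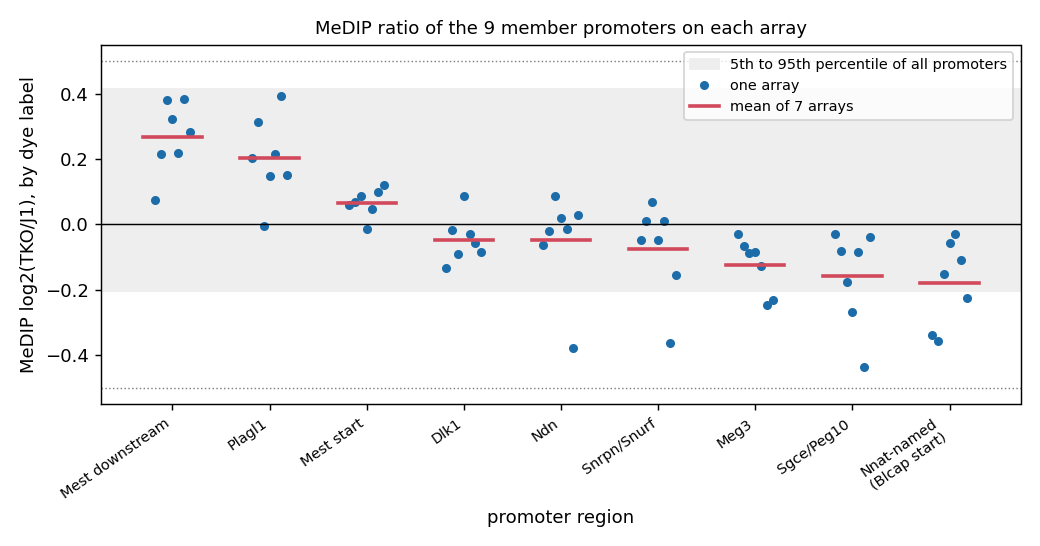
MeDIP log2(TKO/J1) by dye label (y axis) for the 9 promoter regions of the 10 genes (x axis), with 1 point per array and the mean of 7 arrays as a bar, over a grey band from the 5th to the 95th percentile of all promoters (-0.20 to 0.41). The 9 means lie inside the band and under 0.5 in size, and 1 array lies far below the other 6 at Ndn.

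At Plagl1, over 6 probes, the array values ran from -0.0052 to 0.39 with a median of 0.20, and the mean was 0.20 ± 0.13 (n = 7, adjusted p = 0.00259). The outermost probe, 1134 bp before the annotated start, had a mean of 0.74 ± 0.54 (adjusted p = 0.00706), with values from -0.20 to 1.40 and 6 of 7 arrays above 0. It was dim, with a median processed signal of 62.9 in the labelled TKO channel and 35.6 in the labelled J1 channel, and was well above background on 4 of 7 arrays in the labelled TKO channel and 2 of 7 in the labelled J1 channel. With normexp and median centring this probe was at -0.18 (adjusted p = 0.646) and the whole region at 0.072 (adjusted p = 0.205), while with normexp and loess the region was at 0.11 (adjusted p = 7.59e-04). The next probe, at 854 bp before the start, was well above background in both channels on all 7 arrays and lay at 0.44 ± 0.21 (n = 6, adjusted p = 0.00312), just under the call. From 574 bp before to 203 bp after the start the 4 probe means lay between -0.13 and 0.13.

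Mest had 2 regions and 1 probe on its own. Around the annotated start, 5 probes had a mean of 0.066 ± 0.043 (n = 7, adjusted p = 0.0518), above 0 on 6 of 7 arrays. It passed an adjusted p under 0.05 with mode centring, with normexp under median centring or loess, and over bright probes alone, at means from 0.083 to 0.12. Inside the gene, from 2557 to 3594 bp after that start, 5 probes gave array values from 0.073 to 0.38 with a median of 0.28. This region was above 0 on 7 of 7 arrays, with a mean of 0.27 ± 0.11 (adjusted p = 2.79e-04). A pair of its probes carried the ratio. The probe at 3087 bp was at 0.72 ± 0.33 (n = 7, adjusted p = 0.00117), from 0.45 to 1.41, and the probe at 3594 bp was at 0.49 ± 0.20 (adjusted p = 0.00105), from 0.15 to 0.78. With normexp and median centring the probe at 3087 bp was at 0.32 (adjusted p = 0.00156), under the size of a call, and the region at 0.14 (adjusted p = 0.00532). The 3 probes between and before them lay between -0.0088 and 0.11. In GRCm38.p6 the upstream and downstream Mest starts are up to 4547 bp apart, and whether the array's annotated start is the upstream one was not determined.

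**Figure D5:**
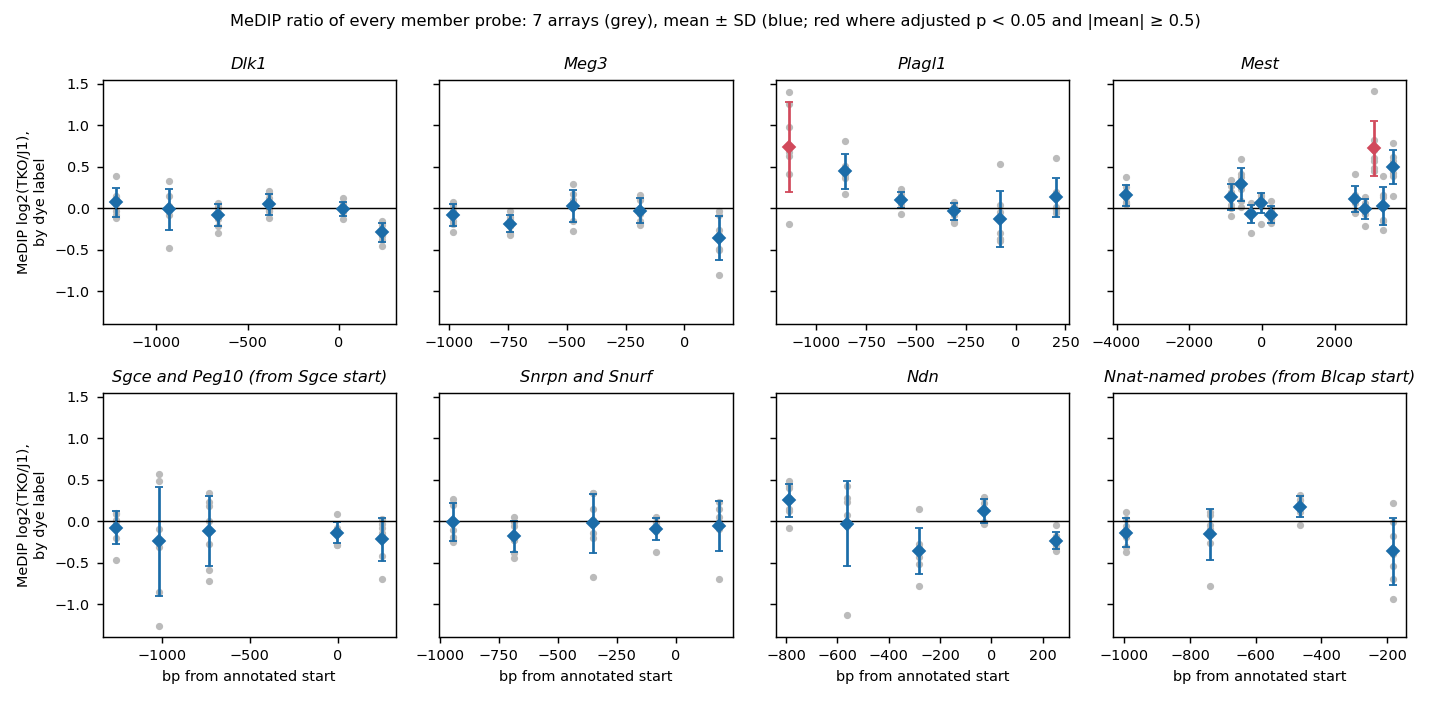
MeDIP log2(TKO/J1) by dye label (y axis) of each probe against its distance in bp from the annotated start (x axis), for the regions of the 10 genes. Grey points are the 7 arrays and diamonds the mean with its SD, red where the probe passed the call, which the probes at -1134 bp of Plagl1 and 3087 bp of Mest did.

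Of the 43 probes, 2 passed the call on the labelled TKO side, the Plagl1 probe at -1134 bp and the Mest probe at 3087 bp, where 7.11% of all 80567 probes did. On the labelled J1 side 0 passed, where 0.851% did, and at any size 6 of 43 had an adjusted p under 0.05, where 19.7% did. On the labelled TKO side at any size 8 of 43 did, where 22.1% did. The median over the 43 probes was -0.029, and -0.0091 over all probes.

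The region that Sgce and Peg10 share was on the labelled J1 side on 7 of 7 arrays, from -0.44 to -0.030 with a median of -0.085, and its mean was -0.16 ± 0.15 (n = 7, adjusted p = 0.0164). Its probes lie within 1260 bp of the Sgce start and 6550 bp or more before the Peg10 start in the array's annotation. The 2 probes inside or at the start of Sgce were bright, and a pair of the 3 probes between the genes was dim, with SDs of 0.42 and 0.66. The Snrpn and Snurf region had 1 probe named for Snrpn and 4 named for Snurf. It was at -0.076 ± 0.15 (n = 7, adjusted p = 0.192), above 0 on 3 of 7 arrays, and its 5 probe means lay between -0.18 and -0.014. With normexp it passed an adjusted p under 0.05, at -0.12 (adjusted p = 0.0141) with median centring and -0.073 (adjusted p = 0.0123) with loess. Ndn was at -0.049 ± 0.15 (n = 7, adjusted p = 0.408), above 0 on 3 of 7 arrays, and its probes went opposite ways. The probe at 252 bp inside the gene was below 0 on 7 of 7 arrays at -0.24 ± 0.10 (adjusted p = 0.00491). The probe at -283 bp, before the start, was the lowest at -0.36 ± 0.28 (adjusted p = 0.0143), below 0 on 6 of 7. That at -787 bp was above 0 on 6 of 7 at 0.25 ± 0.20 (adjusted p = 0.0212). The Ndn region passed an adjusted p under 0.05 at -0.13 (adjusted p = 0.0139) with normexp and median centring, at -0.070 (adjusted p = 0.0135) with normexp and loess, and at -0.14 (adjusted p = 0.00868) over bright probes alone.

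The 4 probes named for Nnat lie 6422 to 7233 bp after the Nnat start, at the start of Blcap, the gene that surrounds it. Their region, which also holds 2 probes named for Blcap, was at -0.18 ± 0.13 (n = 7, adjusted p = 0.00527) and below 0 on 7 of 7 arrays. With normexp and median centring it was at -0.086 (adjusted p = 0.124). The start of Nnat itself is covered by 3 probes named for Blcap, which the choice by name leaves out. They were at 0.39 ± 0.26 (adjusted p = 0.00667) at -802 bp, 0.10 ± 0.11 at -522 bp and -0.059 ± 0.21 at -242 bp.

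Among the other paternally expressed genes 13 promoter regions were tested, of which 5 were brighter in the labelled TKO channel and 5 in the labelled J1 channel at an adjusted p under 0.05, with a median of 0.046. Over all promoters these shares were 32.3% and 25.2%. The 13 include the Snrpn and Snurf region, already counted among the 9 through Snrpn. Rtl1 gave more than 1 of the 13, with regions at its start and at -14643 and -21752 bp from it. The Rtl1 region at -14643 bp, at 0.11 ± 0.099 (n = 7, adjusted p = 0.0249), is among the 5 brighter in the labelled TKO channel, as is the start region. Slc38a4, an amino acid transporter, passed the call at 0.53 ± 0.18 (n = 7, adjusted p = 4.34e-05). Of 23 regions of the other maternally expressed genes, 9 were brighter in the labelled TKO channel and 5 in the labelled J1 channel, 0 passed the call, and the median was 0.0013. A Gnas region at -15750 bp from the nearest annotated start is among these 9. Of 11 regions of genes that set or keep imprints, 2 were brighter in the labelled TKO channel and 6 in the labelled J1 channel, with a median of -0.16. In that list Dppa3, a maternal factor that protects imprints in the zygote, passed the call at 0.72 ± 0.15 (n = 7, adjusted p = 7.40e-06).

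Probes near the start were set against those farther out by a two-sided exact sign-flip test over the 7 arrays, whose smallest p is 0.0156. Over 8 regions at least 3 would have to reach it for any adjusted p to fall under 0.05. With a zone of 1000 bp only the Sgce and Peg10 region had 2 probes on each side, and the difference was 0.00085 ± 0.50 (n = 7, exact p = 1). With a zone of 500 bp, 8 regions could be compared. At Plagl1 the inner probes averaged -0.012 ± 0.15 and the outer ones 0.42 ± 0.22, lower inside on 7 of 7 arrays (exact p = 0.0156, adjusted p = 0.0625 over 8 regions). The outer Plagl1 probes include the dim one at -1134 bp, and the comparison was not run without it. At the Mest start the inner probes averaged -0.030 ± 0.061 and the outer ones 0.21 ± 0.14, again lower inside on 7 of 7 arrays (exact p = 0.0156, adjusted p = 0.0625). The other 6 regions had adjusted p-values of 0.25 or above, and 0 of 8 passed an adjusted p under 0.05, with 2 of 8 under the unadjusted threshold.

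The RNA and MeDIP values of the genes are set side by side here with no test, since the methylated side is not settled. Dlk1, with an RNA log2(TKO/J1) of 1.32, had a promoter MeDIP ratio of -0.047. Meg3, at 0.99, had -0.13, and Peg10, at 0.92, had -0.16 in the region it shares with Sgce, whose RNA was at 0.24. The downstream Mest region had the highest MeDIP ratio of the 9, 0.27, and Mest RNA was at -0.063. Plagl1, with a MeDIP ratio of 0.20, had its brighter RNA probe at 0.90 on 2 arrays.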

How the data were processed

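MeDIP and RNA of TKO and J1 mouse ES cells were read on Agilent arrays with 2 colours. Per the file headers, Agilent Feature Extraction wrote the deposited intensity values, and the submitters' processing notes give version 8.5. The authors' deposited tables hold log10 ratios. The MeDIP tables match the scanner's log ratio of red over green within rounding, with medians from -0.0114 to -0.00204. The expression table, the authors' mean of 3 arrays, correlated with log2(TKO/J1) at r = 0.849 across 41174 probes. How it was centred is not stated in the sources at hand.

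MeDIP processed intensities were turned to log2(red/green) and median centred per array, without loess. Promoters were runs of at least 3 probes sharing an annotated gene, split at gaps over 2000 bp. RNA used normexp (offset 50), loess, the sign of replicate 2 turned, and the brightest probe of a gene that was well above background in TKO or J1 on all 3 arrays. Control and uneven spots were left out. limma 3.58.1 (R 4.3.3) tested log2 ratios against 0, with Benjamini-Hochberg adjustment over all promoters, probes or genes. A call needed adjusted p under 0.05 and a log2 ratio of at least 0.5 (MeDIP) or 1 (RNA). The number of arrays limits the precision. All 10 genes are named, with at most 4 called genes of each other list and the 3 genes most like a gene called 2-fold on 3 arrays. The members and lists were chosen with earlier results of these data known. The fits were tested on simulated data. The fit of each expression probe on its own was added after the data were seen. Of the expression probes, 22072 of 41174 were named by accession through a RefSeq table (GRCm38.p6). No source used here names the build of the MeDIP probes, whose places are therefore written as distances from the annotated start.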

Additional observations from a re-analysis of the deposited data

Results flagged for a closer look

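Of 52 promoters and probes with 6 or 7 array values, 8 had 1 array far from the others, where chance gives about 1 in 20. In 5 of the 8 that array was replicate 6, which on part 1 had the lowest share of probes well above background (88.2%). The 52 are not independent, since the promoters are means of probes also tested here and the arrays are shared. The Ndn promoter, for example, holds the Ndn probe at -561 bp. The count of 8 can therefore not be weighed directly against 1 in 20. At the Ndn promoter replicate 6 was at -0.38, against -0.064 for the nearest array. At the Ndn probe at -561 bp it was at -1.13, at the Snrpn probe at 184 bp -0.70, at the Mest probe at 3087 bp 1.41, and at the Plagl1 probe at 203 bp, on part 2, 0.61. Replicate 1 stood apart at the Nnat-named probe at -739 bp (-0.79) and at the Mest probe at -305 bp (-0.30), and replicate 2 at the Mest probe at -40 bp (-0.19). Without replicate 6 the Mest probe at 3087 bp was at 0.61 and still passed the call, while with normexp and median centring it was at 0.32 and did not.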

How the results depend on the processing

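No paired analysis was possible because each array holds both lines, so that the ratio already pairs them, and the 2 MeDIP parts hold different promoters and are not compared. The slide code as a block could not be fitted for RNA or for MeDIP part 1, and on part 2 it changed no call of the 10 genes. The count of 0 member promoters called held under every alternative run, and leaving out each replicate gave 0 to 0. At any size the count was 5, with 8 under normexp and loess, 7 with probes well above background and a range of 5 to 6 without each replicate. With normexp and median centring the Dlk1 promoter turned to 0.018 (adjusted p = 0.737) and the Plagl1 probe at -1134 bp to -0.18 (adjusted p = 0.646), member probes called went to 0 and those at any size to 7. In that setting the 5 were partly other regions, since Meg3, Plagl1 and the Nnat-named region (-0.086, adjusted p = 0.124) no longer passed, and the Mest start (0.12, adjusted p = 0.00978), Snrpn and Snurf (-0.12, adjusted p = 0.0141) and Ndn (-0.13, adjusted p = 0.0139) did. The causes were not tested. Over all promoters that setting called 15 as brighter in the labelled TKO channel and 1 in the labelled J1 channel, in place of 377 and 10. With normexp and loess these were 14 and 1, and with probes well above background the first was 193. The Plagl1 promoter fell to 0.072 (adjusted p = 0.205) and Meg3 to -0.11 (adjusted p = 0.0559) with normexp and median centring, and Meg3 to -0.083 (adjusted p = 0.121) with mode centring. Member probes called ranged from 2 to 3 without each replicate, the third being the Mest probe at 3594 bp, and those at any size from 11 to 13. Without replicate 6 the Ndn promoter was at 0.0055, and over the 7 arrays left out in turn its range was -0.072 to 0.0055. For RNA, 3 member genes passed 2-fold with Agilent's processed signals (Dlk1 at 1.62, Peg10 at 1.77, Meg3 at 1.01) and 3 with uneven spots kept (Dlk1 at 1.32, Peg10 at 1.17, Meg3 at 1.04). With each probe on its own, an alternative chosen after the data were seen, 2 did. Dlk1 alone passed with median-centred arrays (1.14) and with a gene's probes averaged (1.06), where Meg3 was at 0.89 and 0.88. Leaving out each replicate gave 1 to 2, and 2 to 3 at any size in either direction, with Meg3 at 1.20 through another probe without replicate 2. Without replicate 1 those at any size were Dlk1, Meg3 through that same probe at 0.96, and Snrpn, which was lower in TKO at -0.50. Peg10 and Mest were not tested without replicate 1 or 2. Without the filter 5 member genes had an adjusted p under 0.05, Plagl1 and Peg3 being added. Ndn RNA turned to -0.0028 with median centring and ranged from -0.043 to 0.12 without each replicate, and Mest RNA turned to 0.047 with uneven spots kept. All genes higher and lower in TKO by 2-fold numbered 193 and 89, with 511 and 267 for processed signals, 157 and 137 for median centring, and 115 and 45 without replicate 1. In the authors' deposited table the mean ratio of the tested probe, on the log2 scale, was 1.60 for Dlk1, 2.06 for Peg10, 1.08 for Meg3 and 0.50 for Peg3. Signal over background limits Plagl1, Peg3 and Nnat RNA and the outer Plagl1 MeDIP probe. The Ndn and Peg10 RNA probes passed the filter but were dim too, at mean log2 intensities of 6.51 and 6.86. A Peg3 probe that was well above background on 0 arrays was at 5.95.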
